A study of Mus musculus with 76 samples.

Results

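RNA levels of 9 genes that encode large nuclear, centrosomal and cytoskeletal proteins were described in whole mouse tumors given catalase, the enzyme that breaks down hydrogen peroxide. The 9 genes, of 55536 in the count table, were Srrm2, Setd2, Ino80, Brca2, Senp6, Birc6, Pcm1, Cep250 and Plec. They were chosen by their RNA levels in 4T1-CAT tumors injected with CAT-ABP, where long genes ranked high. The group against which they ranked high is not named. Values that contain those tumors are therefore given below as a description, and where a count of the 9 genes called is printed for them, nothing is read from it. From summed libraries, all 9 passed the filter on low counts in each of the 8 comparisons.

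CT26 is a colorectal carcinoma line and 4T1 a mammary carcinoma line, both grown subcutaneously in female Balb/c mice, whose ages are not in the sample labels. Every tumor was injected on day 6 with alum, a particulate aluminum hydroxide, at 100 µg, either alone or with 20 µg CAT-ABP, catalase carrying an alum-binding peptide that holds it outside the cells. Tumors were taken on day 8. The CT26 and parental 4T1 tumors carried no added gene and the labels give no doxycycline for them. There were 6 CT26 tumors with CAT-ABP and 5 with alum, and 6 parental 4T1 tumors with CAT-ABP and 5 with alum. 4T1-CAT cells were 4T1 cells with a lentiviral, doxycycline-inducible gene for human catalase and GFP, and 4T1-control cells carried GFP alone. Both lines were sorted for GFP, and the mice carrying them ate doxycycline from day 4. These days are from the sample records, and the paper gives later ones for the injection, the harvest and the start of doxycycline. There were 5 4T1-CAT tumors with CAT-ABP, 5 4T1-CAT tumors with alum and 6 4T1-control tumors with alum, and no 4T1-control tumors with CAT-ABP. Each of the 38 tumors was sequenced as 2 technical replicates, giving 76 libraries.

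The proteins fall into 3 groups by where they act. In the nucleus, Srrm2 is a scaffold of nuclear speckles and of the spliceosome, Setd2 places the trimethyl mark on lysine 36 of histone H3 along transcribed genes, Ino80 is the ATPase of a nucleosome-remodeling complex, Brca2 acts in the repair of broken DNA by homologous recombination, and Senp6 trims chains of the small modifier SUMO. At the centrosome, Pcm1 is the scaffold of centriolar satellites and Cep250 helps to link a pair of centrioles. In the cytoplasm, Birc6 is a giant ubiquitin ligase that restrains apoptosis, and Plec (plectin) ties intermediate filaments to other parts of the cytoskeleton.

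The genes share long coding sequences. In the GENCODE M21 annotation of GRCm38, the transcript with the longest coding sequence held between 3417 coding bases for Senp6 and 14646 for Birc6, against a median of 1353 over 12343 expressed genes. The members stood between percentile 89.9 and percentile 99.9 of coding length. Their coding exons differed in base composition, from 41.1% GC in Pcm1 to 61.6% in Plec, with a median of 52.5% over all genes. Runs of A were common: 6 of the 9 genes held a run of at least 7 A in the coding sequence, against 11% of genes. That share is over genes of all coding lengths, and none was taken over genes of like length. The longest runs were 11 A in Senp6, 8 in Birc6 and 7 in Setd2, Ino80, Brca2 and Pcm1.

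Coding windows of 31 bases around the longest A run are shown for the gene with the longest run, for one with a run of 7 and for the member with the shortest one, since the libraries were primed at poly(A). They are read 5′ to 3′ on the coding strand from GRCm38, with the run in capitals. Where in a transcript the reads began was not tested. The Senp6 window is chr9:80136740-80136770 (+), in exon 19 of 24. The Ino80 window is chr2:119450179-119450209 (-), in exon 7 of 36. The Plec window is chr15:76190867-76190897 (-), in exon 11 of 33.
Senp6: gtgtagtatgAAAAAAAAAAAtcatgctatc
Ino80: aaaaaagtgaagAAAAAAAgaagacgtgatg
Plec: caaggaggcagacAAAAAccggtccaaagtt

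RefSeq promoters (GRCm38.p6) were matched for 7 of the 9 genes. In the 250 bases before the start, the members held between 16 and 31 CpG and between 54.4% and 76% GC, against medians of 6 CpG and 52.4% GC over 32851 promoters. The GC box GGGCGG, searched on both strands with overlaps counted, was in 5 of the 7 members and in 32.7% of all promoters. CCAAT was in 1 member and 33.8% of promoters, TATAAA in 1 member and 12.4%, and TGACGTCA in 1 member and 1.5%. The promoters of Setd2 and Ino80 are shown because Setd2 moved least with the other members across tumors and Ino80 moved most with them. GC boxes are in capitals. Setd2 is chr9:110532347-110532596 (+) and Ino80 is chr2:119477688-119477937 (-). The Setd2 promoter held 7 GC boxes and that of Ino80 held 3.
Setd2: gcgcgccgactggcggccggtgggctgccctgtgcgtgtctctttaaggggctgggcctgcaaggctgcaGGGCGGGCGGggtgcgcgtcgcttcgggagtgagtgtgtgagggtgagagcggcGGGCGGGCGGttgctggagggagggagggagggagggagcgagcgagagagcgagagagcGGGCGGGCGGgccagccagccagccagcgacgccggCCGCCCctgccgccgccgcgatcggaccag
Ino80: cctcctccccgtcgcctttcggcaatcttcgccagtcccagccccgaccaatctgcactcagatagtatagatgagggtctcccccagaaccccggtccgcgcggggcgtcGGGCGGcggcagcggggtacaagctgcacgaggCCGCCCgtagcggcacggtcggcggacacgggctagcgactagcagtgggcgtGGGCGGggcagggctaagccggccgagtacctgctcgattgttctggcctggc

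Libraries differed widely in depth and the technical replicates did not contribute alike. A library held between 46233 and 6958626 counts (median 2075009), and 7 libraries were below 518752, set at 0.25 of that median. Technical replicate 1 gave a median of 64.3% of a tumor's counts in CT26 with CAT-ABP, 65.6% in CT26 with alum, 71.9% in 4T1 with CAT-ABP, 78.4% in 4T1 with alum and 78.0% in 4T1-CAT with CAT-ABP, but 38.4% in 4T1-CAT with alum and 20.6% in 4T1-control. Pools here are sets of libraries whose index tags begin with the same letters, and no sample label names them as pools. All CT26 and 4T1 CAT-ABP tumors were in pools 1 and 3, and all 4T1-CAT and 4T1-control tumors in pools 2 and 4. Of the 4T1 alum tumors, 2 were in pools 1 and 3 and 3 in pools 2 and 4. A pool block thus compares 4T1 alum with CT26 or 4T1 CAT-ABP through 2 alum tumors, and with 4T1-control through 3. All replicate 1 libraries were in pools 1 and 2 and all replicate 2 libraries in pools 3 and 4, so replicate and pool cannot be told apart. In whole-tumor RNA, fewer cells of a type and less RNA per cell cannot be told apart either. The 8 epithelial markers summed to between 40.9 and 86.0 CPM, counts scaled to equal library totals after TMM normalization, in CT26 tumors and between 1580 and 2900 CPM in tumors of the 4T1 lines.

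The nuclear genes had their highest group means in different groups. CPM below are from both libraries summed unless a replicate is named, and are not compared between genes. Srrm2 was highest in 4T1 with CAT-ABP (92.0 ± 14.1 CPM, SD, n = 6) and lowest in 4T1-CAT with alum (52.5 ± 5.96, n = 5), with 86.7 ± 18.0 in 4T1 alum, 82.7 ± 5.15 in 4T1-CAT with CAT-ABP, 79.7 ± 8.66 in CT26 alum, 72.2 ± 16.0 in CT26 with CAT-ABP and 63.7 ± 12.8 in 4T1-control. Setd2 was highest in 4T1-CAT with CAT-ABP (83.9 ± 13.2 CPM, n = 5) and lowest in CT26, with 46.3 ± 7.34 under alum and 46.4 ± 5.43 with CAT-ABP. It stood at 79.7 ± 18.6 in 4T1 with CAT-ABP, 74.8 ± 11.4 in 4T1 alum, 63.4 ± 10.3 in 4T1-control and 54.5 ± 4.51 in 4T1-CAT alum. Setd2 thus had lower means in both CT26 groups than in the others, with ranges that overlapped parental 4T1 by a single CT26 tumor, whereas Srrm2 put the CT26 groups between the others.

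Ino80 and Brca2 were both lowest in 4T1-control. Ino80 had 7.22 ± 2.13 CPM in 4T1-control (n = 6) and 9.62 ± 1.41 in 4T1-CAT alum (n = 5), while the other 5 groups lay between 13.4 ± 3.59 in 4T1 alum and 16.2 ± 2.03 in 4T1-CAT with CAT-ABP. Brca2 had 12.3 ± 2.2 CPM in 4T1-control, 15.2 ± 2.68 in 4T1-CAT alum, 21.3 ± 3.67 in 4T1 alum, 22.5 ± 3.36 in 4T1-CAT with CAT-ABP, 27.1 ± 7.07 in 4T1 with CAT-ABP, 29.7 ± 6.43 in CT26 alum and 31.6 ± 4.82 in CT26 with CAT-ABP. The SUMO protease gene Senp6 ran from 17.6 ± 4.15 CPM in 4T1-control to 33.6 ± 7.65 in 4T1 with CAT-ABP. In Senp6, the 5 parental 4T1 alum tumors (27.7 to 30.6 CPM) all lay above the 5 CT26 alum tumors (19.5 to 25.5 CPM).

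The centrosomal and cytoplasmic genes gave a further set of orders. Pcm1 was highest in 4T1 with CAT-ABP (72.3 ± 35.4 CPM, n = 6), where replicate 4, a tumor with one shallow library, stood at 140.9 and the median was 59.9, and lowest in 4T1-CAT alum (39.4 ± 3.58, n = 5). Cep250, the least counted member with 1771 counts in all tumors, ran from 4.15 ± 1.69 CPM in 4T1-control to 11.6 ± 5.16 in 4T1 with CAT-ABP. Birc6 ran from 45.1 ± 6.53 CPM in 4T1-control to 69.6 ± 9.58 in 4T1 with CAT-ABP, with 69.5 ± 3.97 in 4T1-CAT with CAT-ABP. Plec had the widest span, from 28.0 ± 9.47 CPM in 4T1-control to 124 ± 13.1 in CT26 alum, and its 11 CT26 tumors (86.3 to 139 CPM) all lay above its 27 tumors of the 4T1 lines (17.5 to 74.2 CPM).

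Neighboring groups in these orders mostly overlapped in range. Of the 54 pairs of neighbors over the 9 genes, the ranges overlapped in 52, and the difference between means exceeded the larger SD in 11. In technical replicate 1 alone the ranges overlapped in 52 of 54 and in technical replicate 2 alone in 53 of 54. Neighbors are by definition next to each other in mean, and no such count was made over all genes. Nothing about the members is read from these counts. Over the 9 genes, the median rank of 4T1-CAT with CAT-ABP among the 7 groups was 2 in summed libraries, 3 in replicate 1 alone and 5 in replicate 2 alone. 4T1-control had a median rank of 7 in all 3.

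**Figure D1:**
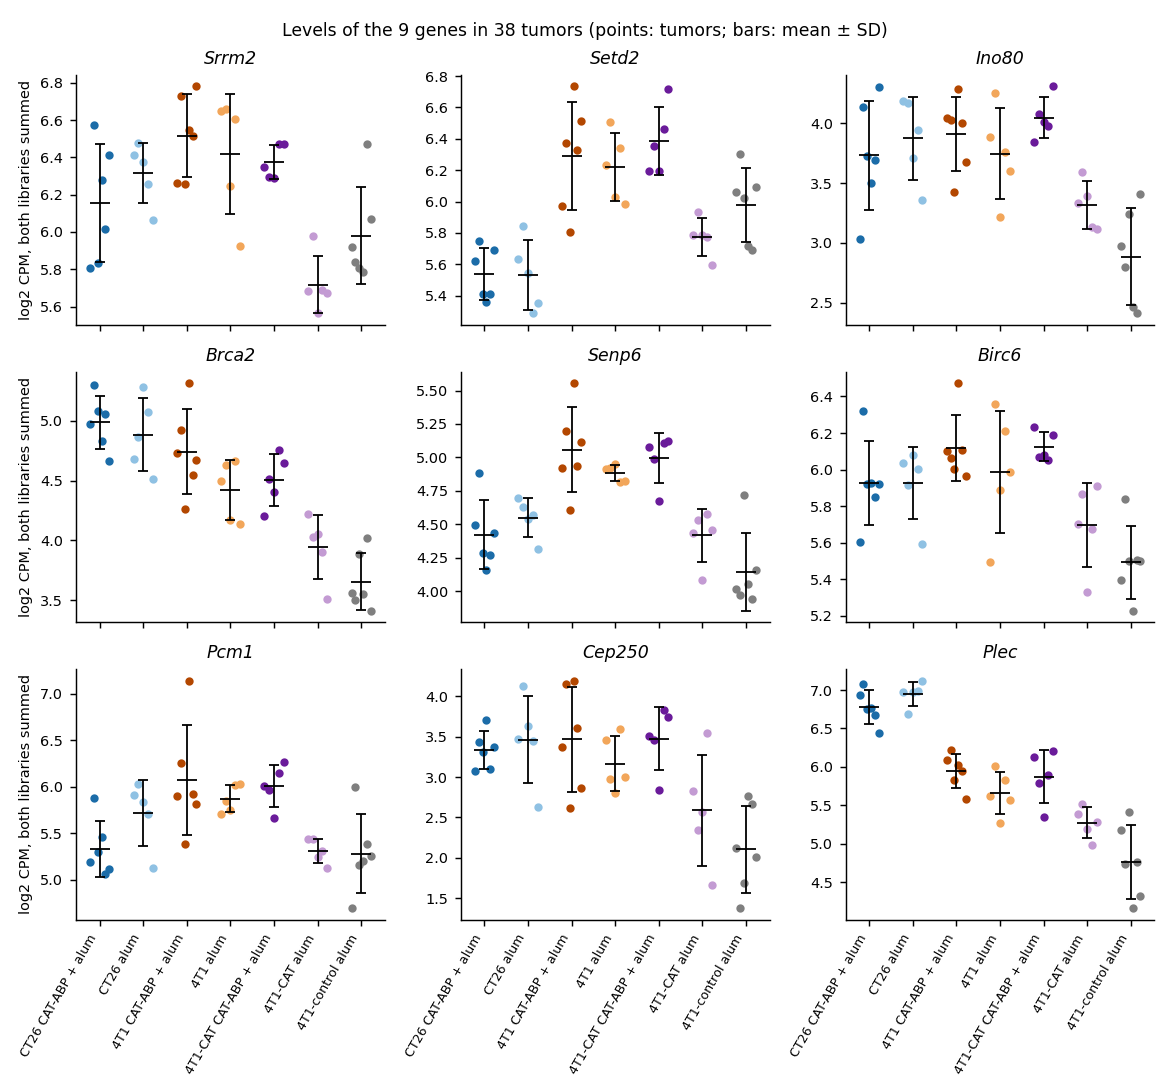
Level of each of the 9 genes in every tumor (y axis, log2 CPM from summed libraries) by group (x axis, 7 groups of 5 or 6 tumors). Points are tumors and bars are group means ± SD. Plec is higher in every CT26 tumor than in any tumor of the 4T1 lines, while most other genes are lowest in 4T1-control or 4T1-CAT alum.

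Across single tumors the members moved together to unequal extents, Ino80 most and Setd2 least. Over the 38 tumors, the Pearson r of a member's log2 CPM with the mean of the other 8 was 0.83 for Ino80, 0.79 for Brca2 and Birc6, 0.77 for Cep250, 0.75 for Senp6, 0.71 for Srrm2, 0.70 for Pcm1, 0.51 for Plec and 0.25 for Setd2. Within replicate 1 it ran from 0.26 to 0.76 and within replicate 2 from -0.02 to 0.70. These tumors share groups, pools and depth, so r is given as a description. Of 11266 other genes, those most like the mean of the 9 were Ash1l (r = 0.855), Ubtf and Prrc2c (0.853 each), Ep300 (0.851), Sptbn1 (0.845), Dst (0.841), Cep170 (0.831) and Spaca6 (0.826). In replicate 1 alone their r lay between 0.307 and 0.840, and in replicate 2 alone between 0.384 and 0.657. The likeness of Ash1l fell most in replicate 1, to 0.307.

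All 9 genes were higher in technical replicate 1 than in technical replicate 2 of the same tumor. This comparison was first made in the 33 tumors outside the group that chose the members, with the tumor as a block (limma voom, Benjamini-Hochberg adjustment over 10726 genes). It called 9 of 9 members higher in replicate 1, beside a background of 14.2% of genes called in that direction. Each replicate had its own pools, so the p-values do not extend to other pools. On the log2 scale the members' ratios ran from 0.41 for Srrm2 (SE 0.06, adjusted p = 6.43e-07 by limma) to 0.77 for Ino80 (SE 0.13, adjusted p = 2.74e-06 by limma), with a median of 0.477 against 0.012 over all genes. Among the others, Plec stood at 0.53 (SE 0.07), Pcm1 at 0.52 (SE 0.08), Cep250 at 0.49 (SE 0.15), Setd2 at 0.48 (SE 0.06), Brca2 at 0.47 (SE 0.10), Senp6 at 0.43 (SE 0.10) and Birc6 at 0.42 (SE 0.07). Some of these tumors, the 4T1-CAT alum and 4T1-control tumors, are ones against which the high levels of the chosen group were seen.

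The CT26 tumors, which were neither the chosen group nor of its line, gave the same direction. In the 11 CT26 tumors, limma voom called 8 of 9 members higher in replicate 1, beside 8.49% of genes, with a median log2 ratio of 0.417. Ino80 was highest at 0.67 (SE 0.19, adjusted p = 0.00974 by limma), and Cep250, at 0.34 (SE 0.24, adjusted p = 0.343 by limma), did not pass. In the 11 parental 4T1 tumors 7 of 9 were called, beside 5.65% of genes, with a median of 0.51 on the log2 scale. There Brca2 was highest at 0.89 (SE 0.17, adjusted p = 0.000698 by limma), while Senp6 at 0.38 (SE 0.16, adjusted p = 0.112 by limma) and Cep250 at 0.15 (SE 0.23, adjusted p = 0.698 by limma) did not pass. In the 28 tumors with both libraries above the depth limit, 8 of 9 were called and the median was 0.468, with Cep250 at 0.35 (adjusted p = 0.059 by limma).

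Most single tumors gave the same direction in log2 CPM. Each replicate was TMM-scaled on its own for these values, so the differences are not the limma ratios above. The counts of tumors include the 5 that chose the members, and no share over all genes was taken. The mean log2 CPM of the 9 genes was higher in replicate 1 in 36 of 38 tumors, the exceptions being 4T1-control replicates 2 and 6, which both held a shallow library. Plec was higher in replicate 1 in 38 of 38 tumors, Srrm2, Setd2 and Ino80 in 37 and Cep250 in 30. In the 4T1-CAT tumors with CAT-ABP, the mean difference over the members was 1.12 ± 0.61 on the log2 CPM scale (SD, n = 5), against 0.67 ± 0.44 in the other 33 tumors. One tumor of that group, replicate 2, had a difference of 2.2, with 95.5% of its counts from replicate 1.

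**Figure D2:**
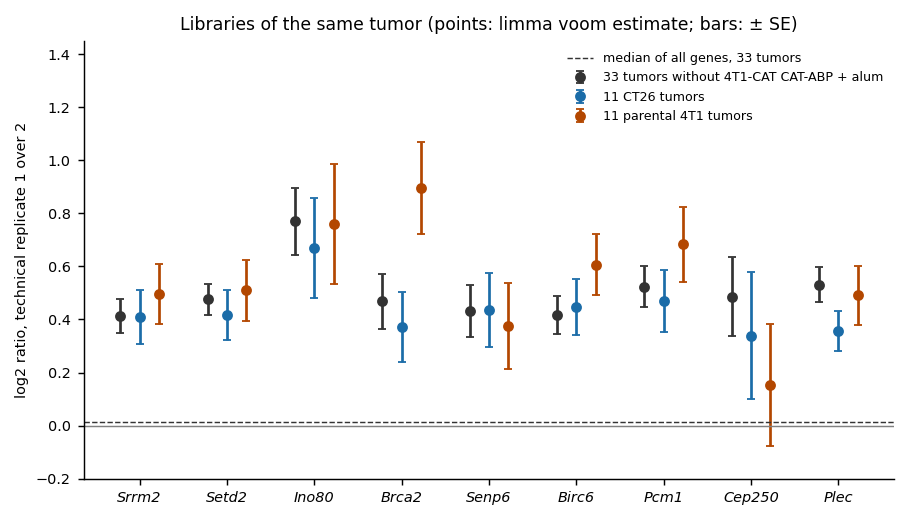
Log2 ratio of technical replicate 1 over technical replicate 2 of the same tumor for the 9 genes (y axis, limma voom estimate with SE bars), in 33 tumors, in 11 CT26 tumors and in 11 parental 4T1 tumors. Every estimate is above 0, with Ino80 at 0.77 in the 33 tumors.

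The mean of the 9 genes was lowest in the groups in which replicate 2 gave most of the counts. From summed libraries it was 5.13 ± 0.18 log2 CPM in CT26 with CAT-ABP (n = 6), 5.25 ± 0.20 in CT26 alum (n = 5), 5.35 ± 0.31 in 4T1 with CAT-ABP (n = 6), 5.15 ± 0.19 in 4T1 alum (n = 5), 5.31 ± 0.17 in 4T1-CAT with CAT-ABP (n = 5), 4.67 ± 0.13 in 4T1-CAT alum (n = 5) and 4.48 ± 0.09 in 4T1-control (n = 6). Replicate 1 gave medians of 38.4% and 20.6% of the counts in the last 2 groups, and the larger part in each of the others. From replicate 1 alone, 4T1-CAT with CAT-ABP stood at 5.55 ± 0.17 and 4T1-CAT alum at 5.04. Its 5 tumors then ran from 5.39 to 5.82, all above the 5 tumors with alum, which ran from 4.88 to 5.23. From replicate 2 alone they stood at 4.43 ± 0.70 and 4.40, which rested on a library of 211876 counts in replicate 2 of the treated group. Without it, the 4 other treated tumors ran from 4.58 to 5.02, with a mean of 4.73 ± 0.21 (SD, n = 4), and overlapped the alum tumors, which ran from 4.08 to 4.66. In the parental 4T1 groups, the tumors with the smallest share of replicate 1 stood at 5.22 with CAT-ABP (30.9%), below the group mean of 5.35, and at 5.16 with alum (30.2%), beside a group mean of 5.15. Between the 4T1-CAT groups, treatment and split differ together. Replicate 1 gave 30.3% to 41.6% of the counts with alum and 56.0% to 95.5% with CAT-ABP, so the shares did not overlap. A fit with the share as a covariate therefore cannot separate them. The split was looked at only through the single replicates and their equal weighting below.

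**Figure D3:**
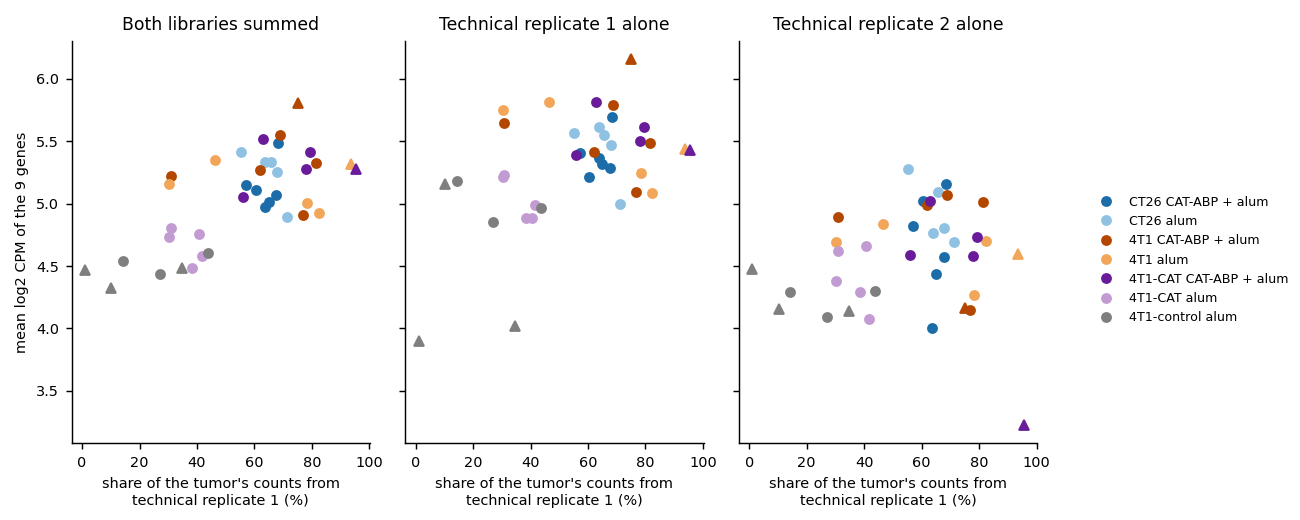
Mean log2 CPM of the 9 genes per tumor (y axis) against the share of the tumor's counts that came from technical replicate 1 (x axis, percent), from both libraries summed, replicate 1 alone and replicate 2 alone (3 panels); colors are groups and triangles are tumors with a library below the depth limit. From summed libraries the 4T1-CAT alum tumors, at shares of 30.3% to 41.6%, lie below the 4T1-CAT tumors with CAT-ABP, at 56.0% to 95.5%, and in replicate 2 alone these groups overlap.

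In a comparison that holds the tumors that chose the genes, all 9 were higher in 4T1-CAT tumors with CAT-ABP than in 4T1-CAT tumors with alum. Srrm2 measured 81.1, 78.2, 77.9, 88.2 and 88.2 CPM in the tumors with CAT-ABP and 51.0, 62.6, 46.9, 51.1 and 50.7 CPM in those with alum. Setd2 measured 73.0, 81.3, 72.8, 87.8 and 104.8 CPM against 54.8, 60.7, 54.9, 54.4 and 48.0 CPM. Pcm1 measured 63.9, 62.2, 50.3, 70.4 and 76.9 CPM against 42.9, 42.8, 37.4, 39.3 and 34.6 CPM. In all 3 genes, every tumor with CAT-ABP lay above every tumor with alum.

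The remaining nuclear genes were divided except for Brca2. Ino80 measured 14.0, 16.5, 15.7, 15.3 and 19.4 CPM with CAT-ABP and 9.69, 11.7, 10.1, 8.36 and 8.25 CPM with alum. Brca2 measured 18.0, 22.5, 20.8, 26.7 and 24.6 CPM against 18.2, 16.0, 16.2, 14.6 and 11 CPM. Senp6 measured 33.3, 31.3, 25.2, 34.1 and 34.5 CPM against 21.2, 22.8, 16.6, 23.5 and 21.6 CPM. The groups overlapped in Brca2 by a single tumor and did not overlap in Ino80 or Senp6.

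Of the cytoplasmic and remaining centrosomal genes, Birc6 was divided and Plec and Cep250 were not. Birc6 measured 74.8, 66.8, 67.1, 66.1 and 72.7 CPM with CAT-ABP and 51.6, 58.0, 39.8, 50.8 and 59.7 CPM with alum. Plec measured 69.6, 55.0, 40.2, 59.2 and 73.4 CPM against 41.6, 45.3, 36.2, 31.3 and 38.5 CPM. Cep250 measured 10.9, 10.6, 6.78, 13.8 and 13.0 CPM against 6.68, 4.67, 5.52, 11.3 and 2.75 CPM. With summed libraries, 6 of 9 members had every CAT-ABP tumor above every alum tumor, beside 2.14% of 13093 genes. With replicate 1 alone there were 5 of 9, beside 1.31% of genes, and with replicate 2 alone 0 of 9, beside 0.29% of genes. Without the shallow library, replicate 2 alone gave 1 of 9, Senp6, beside 0.771% of genes. The choice used these tumors, and nothing is read from the counts.

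The median fold change of that comparison was smaller in replicate 2 alone than in summed libraries. The edgeR log2 fold changes from summed libraries ran from 0.42 for Birc6 (SE 0.12) to 0.79 for Cep250 (SE 0.29), a median of 0.62, with 0.0% of genes and 0 of 9 members past an adjusted p of 0.05. DESeq2 called 282 genes (0.95%), among them 5 members, and 2000 genes had an unadjusted edgeR p under 0.05. The median was 0.51 in replicate 1 alone, 0.27 in replicate 2 alone, 0.30 when both replicates were weighted equally and 0.66 with the share of counts from replicate 1 as a covariate. The shares did not overlap between the 2 groups, so the covariate fit cannot separate split from treatment and nothing is read from it. In replicate 2 alone, Senp6 kept a log2 fold change of 0.52 and Setd2 one of 0.44, while Brca2 had 0.06 and Ino80 0.17. Subtracting the median of genes of like exon length left a median of 0.54 on the log2 scale.

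Against 4T1-control, the 4T1-CAT tumors with CAT-ABP had log2 fold changes from 0.38 for Srrm2 (SE 0.13) to 1.31 for Cep250 (SE 0.26), with a median of 0.84. In this description edgeR called 0.0235% of genes (3 of 12781) and 0 of 9 members, 2162 genes had an unadjusted p under 0.05, and DESeq2 called 491 genes (1.68%) with 6 members. The median fell to 0.51 in replicate 1 alone and to 0.58 with the share of replicate 1 as a covariate. In replicate 2 alone it was 0.45 over the 8 members that passed the filter. Of the 4T1-control libraries, 3 in replicate 1 and 1 in replicate 2 were below the depth limit, as was 1 treated library in replicate 2. The shares of 4T1-control, 1.05% to 43.7%, did not overlap those of the treated tumors. The covariate thus cannot separate split from group. Against parental 4T1 tumors that also had CAT-ABP, the values lay on both sides of 0, from -0.21 for Brca2 (SE 0.17) to 0.15 for Ino80 (SE 0.17), with a median of -0.04. There edgeR called 0.0151% of genes (2 of 13235) and 0 of 9 members, 566 genes had an unadjusted p under 0.05, and DESeq2 called 2 genes and 0 members. The 3 comparisons share the 4T1-CAT tumors with CAT-ABP. In the last comparison replicate 1 gave medians of 78.0% and 71.9% of the counts, but all parental libraries with CAT-ABP were in pools 1 and 3 and all 4T1-CAT libraries with CAT-ABP in pools 2 and 4, so line and pool cannot be told apart.

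Extracellular catalase in CT26 was tested with CAT-ABP against alum, and no member passed. In the edgeR fit 0 of 9 members and 0.0% of 12830 genes were called, 0 of 9 members had an unadjusted p under 0.05 beside 2.42% of genes (311), and DESeq2 called 1 gene and 0 members. The lowest log2 fold change was that of Pcm1, -0.39 (SE 0.19, adjusted p = 1 by edgeR), and the highest that of Brca2, 0.09 (SE 0.17, adjusted p = 1 by edgeR). Pcm1 measured 32.9 CPM at the lowest, 37.6 at the median and 58.4 at the highest in the 6 CAT-ABP tumors, and 59.7, 64.8, 56.8, 51.8 and 34.4 CPM in the 5 alum tumors, so the groups overlapped. The members' median was -0.11 on the log2 scale, against -0.004 over all genes.

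Extracellular catalase in parental 4T1 left the members slightly to the higher side, without a call. All 9 log2 fold changes were above 0, from 0.07 for Setd2 (SE 0.17, adjusted p = 0.999 by edgeR) to 0.31 for Cep250 (SE 0.29, adjusted p = 0.999 by edgeR), with a median of 0.15. In edgeR, 0 of 9 members and 0.0% of 13092 genes were called, 0 of 9 members had an unadjusted p under 0.05 beside 2.88% of genes (377), and DESeq2 called 0 genes. Setd2 measured 55.5, 81.3 and 106.3 CPM at the lowest, median and highest of the 6 CAT-ABP tumors, and 74.7, 90.5, 64.9, 80.8 and 62.9 CPM in the 5 alum tumors. The alum tumors lay inside the range of the treated ones. With the pool as a block 6 of 9 fold changes were above 0, and without CAT-ABP replicate 4, a tumor with a shallow library, 7 of 9 were, with a median of 0.07.

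Intracellular catalase was tested as 4T1-CAT against 4T1-control, both with alum. The highest log2 fold change was that of Cep250, 0.51 (SE 0.35, adjusted p = 1 by edgeR), and the lowest that of Srrm2, -0.29 (SE 0.15, adjusted p = 0.994 by edgeR). Setd2 was the other member below 0, at -0.19 (SE 0.14). In edgeR 0 of 9 members and 0.0% of 12534 genes were called, 1 of 9 members, Plec, had an unadjusted p under 0.05 beside 5.08% of genes (637), and DESeq2 called 0 genes. Plec measured 41.6, 45.3, 36.2, 31.3 and 38.5 CPM in the 4T1-CAT tumors, and 17.5, 26.4 and 42.1 CPM at the lowest, median and highest of the 6 4T1-control tumors. The median log2 fold change of 0.25 was -0.01 in replicate 1 alone, where 8 of the 9 members passed the filter. In that replicate 3 of the 6 4T1-control libraries were below the depth limit, the smallest with 46233 counts. Both groups were also comparison groups for the tumors that chose the members.

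Cell line was compared under alum, and 3 of 9 members passed between parental 4T1 and CT26, beside 42.4% of 12817 genes called by edgeR, and 4 of 9 had an unadjusted p under 0.05 beside 50.2% of genes, so their share was no larger than that of all genes. Plec was lower in 4T1, with a log2 fold change of -1.28 (SE 0.15, adjusted p = 5.48e-06 by edgeR), 48.8, 64.1, 38.2, 56.2 and 47.3 CPM in 4T1 against 124.9, 102.7, 125.7, 126.5 and 138.9 CPM in CT26. Setd2 was higher in 4T1, at 0.70 on the log2 scale (SE 0.15, adjusted p = 0.00134 by edgeR), 74.7, 90.5, 64.9, 80.8 and 62.9 CPM against 49.2, 57.0, 46.2, 38.6 and 40.5 CPM. The groups did not overlap in either gene.

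Brca2 passed by a small margin and did not hold under several other settings. It was lower in 4T1, at -0.48 on the log2 scale (SE 0.18, adjusted p = 0.042 by edgeR), with 22.2, 24.4, 17.6, 24.99 and 17.2 CPM in 4T1 and 25.3, 28.7, 38.6, 33.4 and 22.4 CPM in CT26, which overlapped. The call was lost with DESeq2, without the low-count filter, in either technical replicate alone, with the pool as a block, and without 1 tumor where that tumor was CT26 alum replicate 3 or 4 or 4T1 alum replicate 1, 3 or 5, which left 2 of 9 members called. With RLE size factors, 1 model over 7 groups or a replicate block, 3 of 9 members were called, and 4 without low-depth libraries. Those settings called between 41.9% and 43.4% of all genes. Senp6, at 0.33 on the log2 scale (SE 0.13, adjusted p = 0.0515 by edgeR), lay just outside the threshold. The Setd2 call was lost in replicate 2 alone, where its log2 fold change was 0.46, while Plec kept -1.31 in replicate 1 alone and -1.38 in replicate 2 alone. T cell markers summed to medians of 138 CPM in CT26 alum and 31.5 CPM in 4T1 alum tumors, and ribosomal protein genes to medians of 27300 and 17900 CPM. Their part in these differences was not tested.

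Genes of related pathways were taken from 8 lists. Between 4T1 and CT26, 35 of 169 tested list genes were higher and 23 lower, beside 21.1% of all genes called higher and 21.3% called lower, so the lists together held no larger share of calls than all genes. The counts of single lists below stand beside the same 2 shares. Of 18 plakin, intermediate filament and hemidesmosome genes, 9 were higher in 4T1 and 3 lower, a list median of 0.52 on the log2 scale against -0.02 over all genes. The epithelial keratin genes Krt8 (6.74, SE 0.25, adjusted p = 8.18e-11 by edgeR), Krt18 (6.40, SE 0.24, adjusted p = 8.18e-11 by edgeR) and Krt14 (6.02, SE 0.33, adjusted p = 1.83e-09 by edgeR) were higher in 4T1 on the log2 scale, unlike Plec, whose product binds such filaments.

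Among 26 splicing and nuclear speckle genes, 7 were higher in 4T1 and 1 lower (list median 0.18), led by the splicing factor Srsf11 at 0.86 (SE 0.14), the core spliceosome gene Prpf8 at 0.71 (SE 0.13) and Rbm25 at 0.66 (SE 0.14). Of 20 histone methyltransferase genes 4 were higher and 5 lower, among them Nsd1, which methylates the same histone residue as Setd2, at 0.67 (SE 0.14), and the histone H4 enzyme Kmt5a at -1.36 (SE 0.17). Of 24 homologous recombination genes 3 were higher and 4 lower, with the checkpoint kinase gene Atr at 0.92 (SE 0.15) and Fancd2 at -0.96 (SE 0.24). Those named passed an adjusted p of 0.05 in edgeR, and they moved in both directions in these lists.

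The 4 other lists also held genes of both directions. Of 24 centrosome and satellite genes 3 were higher and 3 lower, with the satellite gene Bbs4 at 1.12 (SE 0.18), the centriole-duplication kinase gene Plk4 at 1.03 (SE 0.18) and Cntln at -2.29 (SE 0.24) on the log2 scale. Of 21 genes of INO80-type remodelers 5 were higher and 3 lower, with Uchl5 at 0.85 (SE 0.19) and Mcrs1 at -1.31 (SE 0.29). Of 19 SUMO genes 2 were higher and 2 lower, with the SUMO protease genes Senp3 at 0.80 (SE 0.14), Senp7 at 0.67 (SE 0.21) and Senp1 at -0.46 (SE 0.16). Of 17 apoptosis inhibitor and giant ubiquitin ligase genes 2 were higher and 2 lower, with Usp34 at 0.67 (SE 0.15) and Rnf213 at -0.75 (SE 0.19). In the comparisons of catalase with its control and of 4T1-control with parental 4T1, where edgeR called no gene, no list gene passed either.

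The engineered control line differed from parental 4T1 in level without a call. Under alum, all 9 log2 fold changes of 4T1-control over parental 4T1 were below 0, from -0.28 for Setd2 (SE 0.15, adjusted p = 0.547 by edgeR) to -0.99 for Cep250 (SE 0.28, adjusted p = 0.262 by edgeR), with a median of -0.72. In edgeR 0 of 9 members and 0.0% of 12431 genes were called. An unadjusted p under 0.05 was reached by 8 of 9 members, beside 10.5% of genes in either direction and 4.67% with a lower level in 4T1-control. 4T1-control was also a comparison group for the tumors that chose the members, so this count is not independent of the choice and is given as a description. DESeq2 called 27 genes (0.0948%), among them Plec and Pcm1, and gave no adjusted p for Ino80, Senp6, Cep250 and Brca2. The median was -0.43 in replicate 1 alone and -0.28 in replicate 2 alone, each over the 8 members that passed the filter there. It was -0.65 over all 9 with the share of replicate 1 as a covariate. Of the 4T1-control libraries, 3 in replicate 1 and 1 in replicate 2 were below the depth limit, as was 1 parental library in replicate 2.

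The tumors behind these values overlapped in part. Plec measured 17.5, 26.4 and 42.1 CPM at the lowest, median and highest of the 6 4T1-control tumors and 48.8, 64.1, 38.2, 56.2 and 47.3 CPM in the 5 parental ones. Brca2 measured 10.2, 11.3 and 15.8 CPM against 22.2, 24.4, 17.6, 24.99 and 17.2 CPM, and its groups did not overlap, while those of Plec did. Replicate 1 gave a median of 20.6% of the counts in 4T1-control and 78.4% in parental 4T1 tumors. Mitochondrial mRNAs summed to medians of 50500 CPM in 4T1-control and 34800 CPM in parental 4T1 alum tumors, and the part of these mRNAs in the lower levels was not tested.

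**Figure D4:**
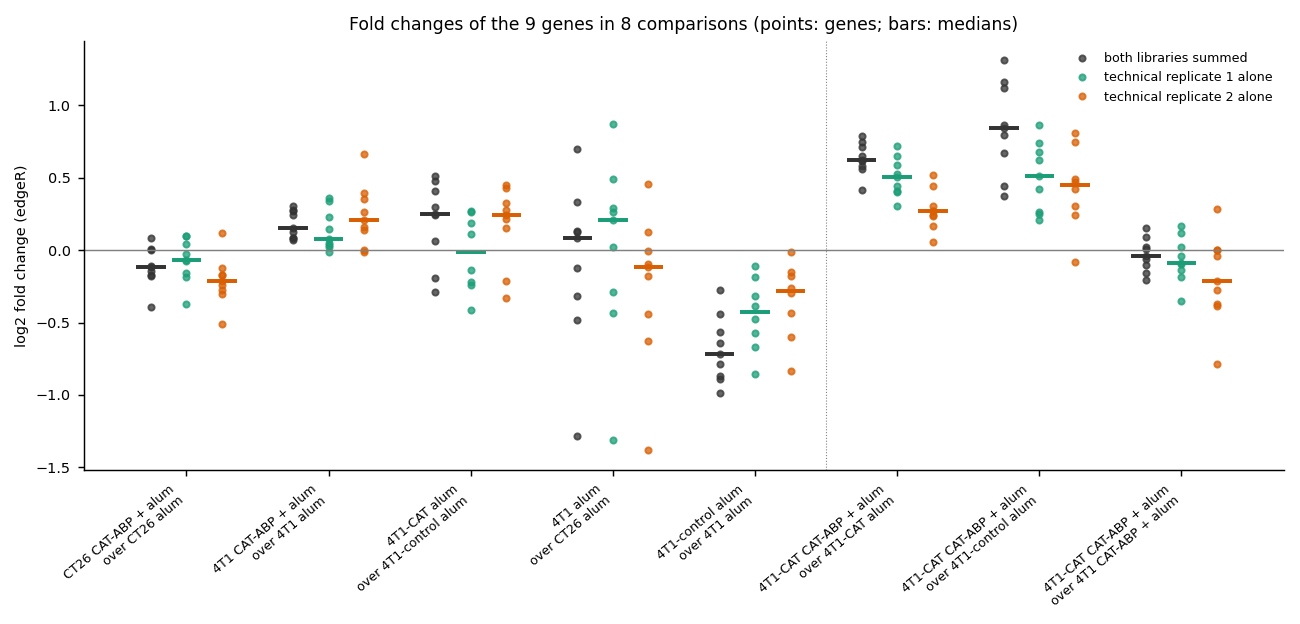
Log2 fold changes (y axis, edgeR) of the 9 genes in 5 tested comparisons and, right of the dotted line, 3 described ones (x axis), from summed libraries and from each technical replicate alone; points are genes and bars are medians. In 4T1-CAT with CAT-ABP over 4T1-CAT alum the median falls from 0.62 in summed libraries to 0.27 in replicate 2 alone. A gene that did not pass the filter in a single replicate has no point there.

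Coding length went with these differences over all genes. In 10 equal classes of coding length, genes had a median log2 ratio of replicate 1 over replicate 2 of -0.25 in the shortest class and 0.14 in the longest, in the 33 tumors. The longest class held 8 of the 9 members, and Senp6 fell in the class below it. In 4T1-CAT with CAT-ABP over 4T1-CAT alum the medians ran from -0.22 to 0.15, and over 4T1-control from -0.13 to 0.14. In 4T1-control over parental 4T1 they ran the other way, from 0.08 to -0.11. In the CAT-ABP comparison in CT26 they ran from 0.08 to -0.06 and in parental 4T1 from -0.04 to 0.04. The members' medians were larger than those of the longest class, 0.48 against 0.14 for the replicates and 0.62 against 0.15 for CAT-ABP in 4T1-CAT. The members were chosen for high levels in 4T1-CAT with CAT-ABP, so nothing is read from the second gap. The tumors of the replicate comparison include 4T1-CAT alum and 4T1-control, against which those high levels were seen. In the replicate comparison, 60 of 159 genes of the 8 pathway lists were called higher in replicate 1 and 26 lower (limma voom), beside 14.2% and 19.3% of all genes, and 13 of 16 ribosomal protein genes, which are short, were called lower with a list median of -0.28 on the log2 scale.

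**Figure D5:**
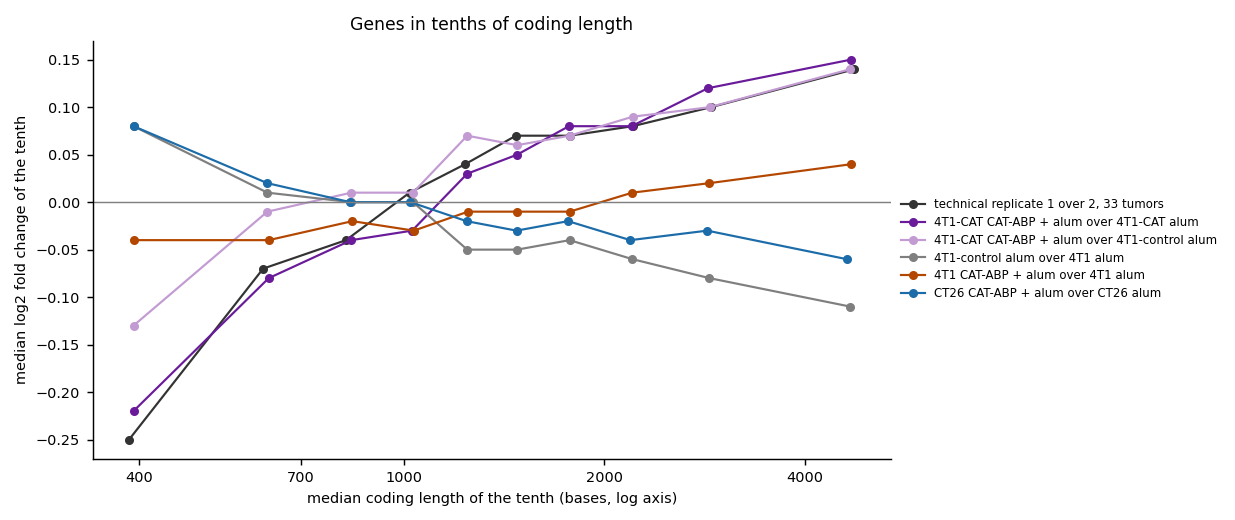
Median log2 fold change (y axis) of all tested genes in 10 classes of coding length (x axis, median bases of the class, log axis), with one line per comparison. The line for technical replicate 1 over 2 rises from -0.25 to 0.14, and that for 4T1-control over parental 4T1 falls from 0.08 to -0.11.

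The genes lie on 6 chromosomes, in GRCm38 coordinates. Srrm2 is at chr17:23790532-23824741 (+) and Birc6 at chr17:74528295-74703356 (+), Setd2 at chr9:110532597-110618633 (+) and Senp6 at chr9:80066903-80144953 (+), Ino80 at chr2:119373042-119477687 (-) and Cep250 at chr2:155956458-155998900 (+). Brca2 is at chr5:150522630-150570329 (+), Pcm1 at chr8:41239752-41332344 (+) and Plec at chr15:76170974-76232574 (-). Some exons overlap other genes, and how shared reads were assigned is not given in the sources used here. Plec shares 205 exon bases with Parp10 on the same strand, which held 1376 counts in all tumors against 13208 for Plec. Srrm2, Brca2, Senp6, Birc6 and Cep250 share between 4 and 1149 exon bases with a gene on the opposite strand.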

How the data were processed

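Whole tumors were sequenced with HT3DGE, a modified SCRB-seq protocol that primes at poly(A). Per the paper's methods, the authors obtained gene-level reads from the Smart-seq2 workflow on Terra and used DESeq2. The deposited table holds estimated counts that are not normalized, and 39.7% of its non-zero values were not whole. The genome build and the handling of molecular identifiers are not given in the sources used here. All 55536 gene IDs matched GENCODE M21.

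For each tumor, the counts of its libraries were added and then rounded, to totals between 493086 and 9077683. Groups came from the sample labels. Whether the mice of a group were handled separately is not stated, and p-values of the comparisons between groups measure the spread between these tumors. After filterByExpr and TMM scaling, edgeR's quasi-likelihood test was fitted to the 2 groups of each comparison, with Benjamini-Hochberg adjustment at 0.05. Log2 CPM had a prior count of 2. Libraries of the same tumor were compared with limma voom, with the tumor as a block. Its p-values measure how the difference between libraries of a tumor varied over these tumors. Replicate and pool cannot be told apart, so those p-values hold no spread between further sets of pools. Standard errors are those of the log2 fold change. The coding sequence of a gene was the longest among its transcripts.

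On simulated counts, edgeR recovered between 55.2% and 77.6% of 2-fold changes and between 6% and 22.4% of 1.5-fold changes over the 8 comparisons, with between 2.4% and 10.1% of calls false. Limma voom recovered 80.5% of 1.5-fold changes over 10726 genes, with 3% of calls false.

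The alternatives were DESeq2, RLE size factors, no filter, each technical replicate alone, no libraries under 0.25 of the median total, 1 model over 7 groups, a replicate block, a pool block, each tumor left out, a correction for genes of like exon length and a prior count of 0.5. Chosen after seeing the data were equal weights for the technical replicates, the share of counts from replicate 1 as a covariate, the limma voom fits, and replicate 2 alone without 1 shallow library of the 4T1-CAT tumors given CAT-ABP. The 9 genes and the gene lists were chosen with earlier results of these data known. Named are all 9 members, with the fold change of each past the threshold and of the highest and the lowest in a tested comparison; up to 3 genes past the threshold from each pathway list, by smallest adjusted p; and the 8 genes with at least 20 counts per tumor most like the members' mean. Senp6 in the line comparison, Setd2 in the 4T1-CAT comparison and the values from single replicates were named after seeing them. Tools were edgeR 4.0.16 and limma 3.58.1 in R 4.3.3, DESeq2 1.42.0, and Python 3.11.15.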

Additional observations from a re-analysis of the deposited data

Results flagged for a closer look

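Of 63 sets of a gene in a group, 2 held a tumor set apart from the others by more than Dixon's critical value, and chance sets apart about 1 in 20 sets. Senp6 measured 4.72 log2 CPM in 4T1-control alum replicate 3, with the nearest tumor at 4.16, and that tumor had the highest share of counts from technical replicate 1 in its group (43.7%). Birc6 measured 6.47 log2 CPM in 4T1 CAT-ABP + alum replicate 4, with the nearest at 6.11. That tumor had 837522 counts in all, of which technical replicate 1 gave 75.1%.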

How the results depend on the processing

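Depth limits the members with few counts, Cep250 with 1771 and Ino80 with 2455 counts in all tumors. In simulated counts, edgeR seldom recovered 1.5-fold changes. Group and the share of counts from technical replicate 1 differ together between 4T1-CAT with CAT-ABP and both 4T1-CAT alum and 4T1-control, and no alternative separates them fully. Of the values on members called, medians and levels under an alternative, 327 kept their direction and side of the threshold, 13 moved by more than the spread between tumors, 12 gained calls and 1 lost calls. Of the single genes, 754 were unchanged in this sense, 54 moved, 13 lost the threshold and 4 changed sign. The cause was not tested in any of these.

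For 4T1-CAT over 4T1-control with alum, the median log2 fold change was -0.013 in replicate 1 alone, over 8 members. It was 0.118 over all 9 with the share of replicate 1 as a covariate. In replicate 1 alone, 3 of the 6 4T1-control libraries were below the depth limit, in this and the other comparisons with 4T1-control. For 4T1 over CT26, replicate 2 alone left 1 member called and a median of -0.115. Leaving out 1 tumor left between 2 and 4 called. For 4T1-control over parental 4T1, DESeq2 called 2 members (0.0948% of all genes), no filter 4 (0.456%), dropping shallow libraries 1 (0.114%) and 1 model over 7 groups 1 (0.0683%). Its median was -0.429 in replicate 1 alone and -0.278 in replicate 2 alone, each over 8 members. With equal weights it was -0.535, where the median of all genes was -0.253. For 4T1-CAT with CAT-ABP over 4T1-CAT alum, DESeq2 called 5 members (0.95% of all genes) and no filter 3 (0.158%), and the median was 0.268 in replicate 2 alone, 0.299 with equal weights and 0.656 with the covariate. Over 4T1-control, DESeq2 called 6 (1.68%), no filter 7 (1.81%), dropping shallow libraries 7 (1.13%) and 1 model over 7 groups 5 (0.212%). Nothing is read from counts in the comparisons that hold the tumors that chose the members. Leaving out 1 tumor gave between 0 and 7, with 7 without 4T1-control replicate 2 or replicate 3. The median there was 0.511 in replicate 1 alone, 0.447 over 8 members in replicate 2 alone and 0.582 with the covariate. With equal weights it was 0.588, where the median of all genes was 0.257. The difference in the members' mean between those groups was 0.83 log2 CPM, and 0.19 in replicate 2 alone, where 1 library of the treated group held 211876 counts. Without that library, the treated group had a mean of 4.73 log2 CPM in replicate 2 alone, against 4.24 in 4T1-control.

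Brca2 in CT26 ranged from -0.01 to 0.22 with 1 tumor left out, and Setd2 in parental 4T1 with CAT-ABP from -0.03 to 0.16, with -0.01 in replicate 1 alone and -0.07 with a pool block. With a replicate block the median was -0.143 in CT26 with CAT-ABP, 0.191 in parental 4T1 with CAT-ABP, 0.224 for 4T1-CAT over 4T1-control, 0.059 for the lines with 3 members called, and -0.701 for 4T1-control, and no count of members past the adjusted threshold changed. The labels give same-numbered tumors only a number in common. Their deviations correlated between -0.38 and 0.393 with mixed signs. No differently numbered tumors were compared, so this does not decide whether they shared more.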
